A study of Mus musculus with 17 samples.

Results

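Zbtb16, Dmrt1, Lhx2, Neurog3, Sohlh1, Sohlh2, Taf4b, Nanos2, Nanos3 and Dazl encode transcription and RNA regulators of undifferentiated and differentiating spermatogonia, the mitotic germ cells of the testis. They were chosen by gene symbol, 10 of the 23891 symbols in the data, and each gene is given by its RefSeq transcript with the highest mean level over all 17 samples. The 10 genes have 12 transcripts among the 32661 analysed, since Dazl and Lhx2 have 2 each. RNA was sequenced from cultured mouse cells, and levels are in FPKM, sequenced fragments scaled to transcript length and to library size, so that they can be compared between genes per unit of length.

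Spermatogonial stem and progenitor cells (SSCs) were grown from adult mouse testis on mitotically inactive mouse embryonic fibroblasts (MEFs) in medium with GDNF, bFGF and EGF. SSC.1 and SSC.2 carried the Oct4-GFP transgene, SSC.3 was C57Bl/6J and SSC.4 was 129mix. Multipotent adult spermatogonial-derived stem cells (MASCs) grew out of long-term SSC cultures as colonies that were picked. MASC.1 and MASC.2 were Oct4-GFP, MASC.3 and MASC.4 were 129mix, and MASC.5 and MASC.6 were Gt(ROSA26)Sor-lacZ. Embryonic stem cells (ESCs) were Oct4-GFP (ESC.1) and 129mix (ESC.2). The induced pluripotent stem (iPS) cell lines iPS.1 and iPS.2, both 129mix, came from fibroblasts of E13.5 embryos that combined tetO-4F2A with H3.3B-HA and were given doxycycline at 2 µg/ml to express the reprogramming cassette. MASCs, ESCs and iPS cells were kept on MEFs in medium with LIF. HSC.1 and HSC.2 were C57Bl/6J lineage-negative blood stem and progenitor cultures on endothelial (E4ORF1-HUVEC) feeders, and the MEF sample was 129mix from E13.5 H3.3B-HA embryos. The study prepared SSCs from mice over 3 months old. Each line is 1 sample, and p-values measure the spread between lines of a cell type.

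Defining markers were checked first. The 8 germ-line markers summed to between 430.1 and 768 FPKM in SSC lines and to between 23.4 and 44.7 FPKM in MASC lines. In the MEF sample the germ-line markers summed to 36.1 FPKM, of which Gfra1 made up 35.5 FPKM, against 9.04 to 31.7 FPKM of Gfra1 in SSC lines. The 8 markers of meiotic germ cells summed to between 120.2 and 210 FPKM in SSC lines and to between 24.8 and 43.6 FPKM in MASC lines. The 8 pluripotency markers summed to between 34.5 and 180.5 FPKM in SSC lines and to between 2855 and 4397 FPKM in MASC lines. SSC.1 stood apart with 94.5 FPKM of Pou5f1, the gene of Oct4, against 1.37 to 5.42 FPKM in the other SSC lines. The other pluripotency markers did not set SSC.1 apart in this way. Esrrb, Zfp42, Tdgf1 and Dppa5a were highest in SSC.1 (6.82, 10.56, 0.663 and 41.77 FPKM), but the next SSC line had 4.88, 10.45, 0.301 and 36.65 FPKM. Sox2 was higher in SSC.2 (3.13 against 1.13 FPKM), Klf4 was higher in SSC.3 (50.1 against 25 FPKM), and Nanog was at most 0.0435 FPKM in SSC lines. The 14 fibroblast markers, none of which was under 1 FPKM in all SSC lines, summed to between 52.7 FPKM (SSC.2) and 939.9 FPKM (SSC.3) in SSC lines and to between 26.6 and 1071 FPKM (MASC.1) in MASC lines, against 6186 FPKM in the MEF sample. The 12 markers of Sertoli, Leydig and peritubular cells summed to between 28.9 and 36.3 FPKM in SSC lines and to between 24.0 and 92.9 FPKM in MASC lines. Of the 12, 5 were under 1 FPKM in every SSC line, with Fshr at 0. Wt1 was 20.9, 8.17, 14.3 and 13.3 FPKM in SSC.1 to SSC.4 and at most 4.41 FPKM in MASC lines. Sox9 was 1.75, 12.4, 3.23 and 9.56 FPKM in SSC.1 to SSC.4 and at most 3.24 FPKM in MASC lines. Gata4 reached 5.95 FPKM in SSC lines and 10.7 FPKM in MASC lines. Acta2 went the other way, with at most 9.15 FPKM in SSC lines and at least 11.5 FPKM in MASC lines. Between 13532 and 16272 transcripts per sample had at least 1 FPKM, and 1 FPKM stood for a coverage of 1.26 to 3.23 reads per base, depending on the sample.

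In the testis, a small pool of undifferentiated spermatogonia both renews itself and supplies cells that commit to meiosis. ZBTB16, NANOS2 and GDNF signalling are known to hold cells in the undifferentiated state, SOHLH1 and SOHLH2 to drive differentiation, and DMRT1 to keep spermatogonia from entering meiosis early. DAZL and the NANOS proteins act on mRNA, through its translation and decay, and DAZL and NANOS3 are needed already in embryonic germ cells.

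Promoter sequences were at hand for 7 of the 10 genes, as 8 windows of 250 bases before a RefSeq start on GRCm38.p6. Zbtb16, Dmrt1 and Taf4b had none. The windows of Sohlh1 and Sohlh2, which encode basic helix-loop-helix factors that act together, and of the RNA regulators Nanos2, Nanos3 and Dazl are shown, because the results turn on these genes and their windows differ in CpG number and in motifs. Each is written 5′ to 3′ on the strand of the gene and ends at the base before the start, with CACGTG (a palindrome, the core of an E-box), TCCCGC or its reverse complement GCGGGA, and TATAAA or its reverse complement TTTATA in capitals.
Sohlh1: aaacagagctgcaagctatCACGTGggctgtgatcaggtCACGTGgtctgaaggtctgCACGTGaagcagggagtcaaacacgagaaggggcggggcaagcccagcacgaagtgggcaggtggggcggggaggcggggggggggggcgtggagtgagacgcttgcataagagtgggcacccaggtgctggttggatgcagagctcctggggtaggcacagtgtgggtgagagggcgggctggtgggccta
Sohlh2: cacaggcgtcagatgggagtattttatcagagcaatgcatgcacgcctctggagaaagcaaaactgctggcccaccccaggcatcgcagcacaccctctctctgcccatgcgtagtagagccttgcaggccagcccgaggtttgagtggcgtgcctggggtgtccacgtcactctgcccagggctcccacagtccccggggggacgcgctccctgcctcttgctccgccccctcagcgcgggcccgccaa
Nanos2: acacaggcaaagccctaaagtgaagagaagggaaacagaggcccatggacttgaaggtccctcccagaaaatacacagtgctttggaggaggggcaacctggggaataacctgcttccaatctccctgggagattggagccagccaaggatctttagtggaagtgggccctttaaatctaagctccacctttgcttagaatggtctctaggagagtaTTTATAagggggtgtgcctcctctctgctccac
Nanos3: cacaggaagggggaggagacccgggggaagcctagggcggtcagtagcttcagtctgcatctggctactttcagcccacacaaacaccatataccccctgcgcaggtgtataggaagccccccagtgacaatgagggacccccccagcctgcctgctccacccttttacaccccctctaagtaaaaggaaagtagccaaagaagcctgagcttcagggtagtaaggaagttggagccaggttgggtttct
Dazl: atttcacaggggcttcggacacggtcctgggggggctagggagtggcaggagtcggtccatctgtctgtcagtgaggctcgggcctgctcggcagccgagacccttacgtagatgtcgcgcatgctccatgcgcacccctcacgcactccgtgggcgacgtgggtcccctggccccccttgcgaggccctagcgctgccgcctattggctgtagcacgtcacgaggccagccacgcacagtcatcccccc
Sohlh1 (chromosome 2, 25847249 to 25847498, minus strand) held 3 CACGTG motifs, which begin 231, 211 and 192 bases before the start. At least 1 CACGTG was found in 6.02% and at least 3 in 0.0609% of the 32851 windows of this length. Sohlh2 (chromosome 3, 55181794 to 55182043, plus strand) held none of the 3 motifs. Nanos2 (chromosome 7, 18987274 to 18987523, plus strand) was the window with a TATAAA-type motif, in its TTTATA form, which 12.4% of windows hold on either strand. Nanos2 had 0 CpG dinucleotides and Nanos3 (chromosome 8, 84176553 to 84176802, minus strand) 3, whereas Sohlh1 had 11, Sohlh2 14 and Dazl (chromosome 17, 50293621 to 50293870, minus strand) 20. Over all windows the median was 6, with quartiles of 2 and 16. Neurog3 had 18 CpG dinucleotides and the Lhx2 windows 25 and 24, of which the first held 2 GCGGGA motifs. TCCCGC or its reverse complement is found at least 1 time in 16.9% and at least 2 times in 3.55% of windows.

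To determine how these regulators differ between SSCs and the multipotent lines derived from them, MASC lines were compared with SSC lines. Of the 10 genes, 9 were lower in MASC lines and none was higher. Dazl (−5.88 for its main transcript, −5.23 for both summed), Zbtb16 (−5.32), Dmrt1 and Nanos3 had the largest differences with a pseudocount of 1. With a pseudocount of 0.1 these were Zbtb16 (−7.39), Nanos2 (−6.40), Dazl (−6.26) and Nanos3 (−5.22). Taf4b had the smallest of the differences that passed with either. Sohlh1 did not pass. A call required a Benjamini-Hochberg adjusted p under 0.05 in limma and a difference of at least 1 in log2(FPKM + 1), which understates the change of genes with low levels. By this rule 9.60% of all 32661 transcripts were lower in MASC lines and 6.04% were higher. The highest MASC line was below the lowest SSC line for 8 of the 10 genes, beside 15.4% of all transcripts. The median difference of the 10 genes was −3.56, and that of all transcripts was 0.00. The 3137 transcripts called lower and 1972 called higher became 2427 and 2340 with quantile normalization, and 9 of the 10 genes were lower under both. In bulk samples, fewer cells that express a gene and less RNA per cell cannot be told apart. SSC lines were grown with GDNF, bFGF and EGF, and MASC, ESC and iPS cell lines with LIF. Cell type and medium therefore cannot be told apart in comparisons between them.

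**Figure D1:**
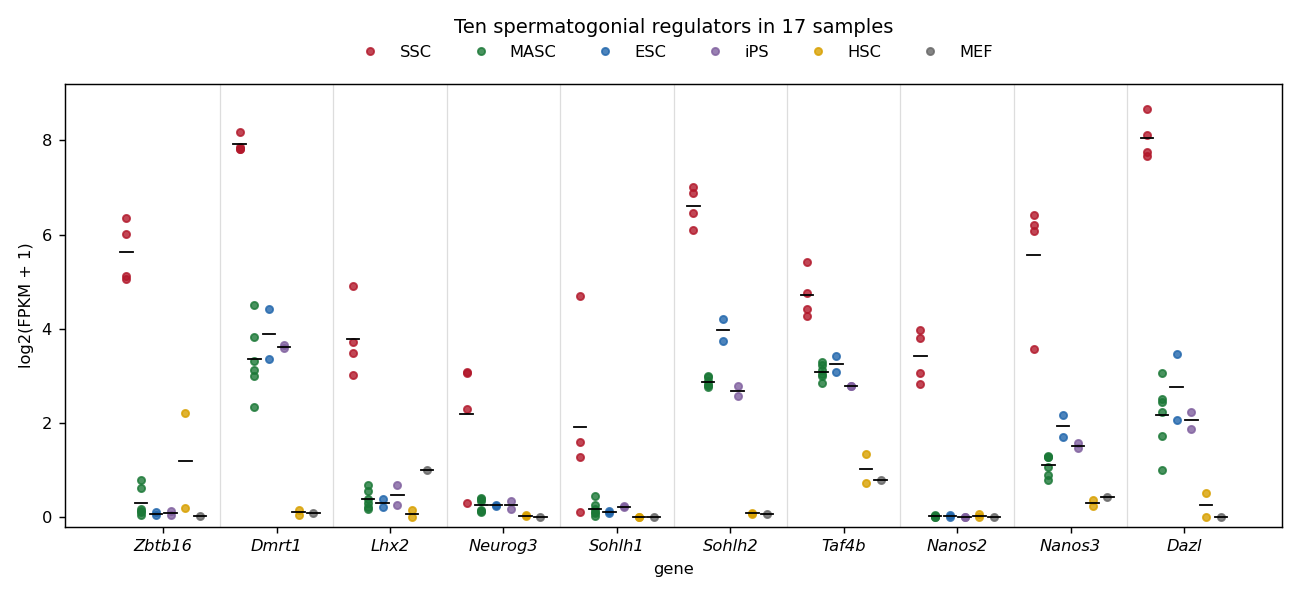
Level of each of the 10 genes, as log2(FPKM + 1), in the 4 SSC, 6 MASC, 2 ESC and 2 iPS cell lines, the 2 HSC cultures and the MEF sample. Each point is a sample and each black bar a group mean. SSC lines lay above the MASC lines without overlap for 8 genes, the exceptions being Neurog3 and Sohlh1. Dmrt1, Sohlh2, Taf4b, Dazl and Nanos3 lay higher in every MASC, ESC and iPS cell line than in HSC and MEF samples. So did Neurog3 and Sohlh1, at levels under 1 FPKM. The share of all transcripts that did so was not counted.

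Zbtb16 (NM_001033324, chromosome 9, 48462402 to 48644050 on mm9, minus strand) encodes PLZF, a zinc-finger repressor needed for self-renewal of spermatogonia. Its level was 63.5, 33.6, 32.2 and 80.3 FPKM in SSC.1 to SSC.4. In MASC lines it ran from 0.0369 to 0.732 FPKM, with a median of 0.116 FPKM. Every SSC line was above every MASC line, and the 2 highest MASC lines were the 2 Gt(ROSA26)Sor-lacZ lines, MASC.5 with 0.533 FPKM and MASC.6 with 0.732 FPKM. The difference was −5.32 (SE 0.28, limma adjusted p = 1.3e-06), and the SSC mean was 195-fold the MASC mean. ESC and iPS cell lines had between 0.0278 and 0.0954 FPKM. The HSC cultures differed from each other, with 0.143 FPKM in HSC.1 and 3.63 FPKM in HSC.2. HSC.2 was also the culture with the higher sum of fibroblast markers, 430.6 against 7.23 FPKM, and the part of other cells in this value was not tested. Zbtb16 was 0.0229 FPKM in the MEF sample.

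Dmrt1 (NM_015826, chromosome 19, 25580196 to 25678818, plus strand) encodes a DM-domain factor of germ cells and Sertoli cells. The part of Sertoli cells in its level was not tested. Of their markers, Wt1 and Sox9 had the values given above, whereas Fshr was 0 and Amh at most 0.817 FPKM in SSC lines. Dmrt1 was measured at 231, 223, 224 and 287 FPKM in SSC.1 to SSC.4. Among SSC lines it was the gene with the smallest spread, 1.29-fold between the highest and the lowest. MASC lines had 4.07 to 21.7 FPKM with a median of 8.38 FPKM, all far below the SSC lines. The difference was −4.56 (SE 0.39, adjusted p = 2.2e-05), a 23-fold ratio of the means. The 2 highest MASC lines, MASC.2 with 21.7 FPKM and MASC.1 with 13.3 FPKM, were the Oct4-GFP lines. The Oct4-GFP line was also the higher of the 2 ESC lines, with 20.3 against 9.25 FPKM in the 129mix line. Dmrt1 was 11 and 11.6 FPKM in the iPS cell lines, 0.122 and 0.0376 FPKM in the HSC cultures and 0.0685 FPKM in the MEF sample.

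Lhx2 (NM_010710, chromosome 2, 38206828 to 38225257, plus strand), a LIM-homeodomain factor best known from eye, forebrain and hair follicle, had 12.2, 29.1, 7.13 and 10.2 FPKM in SSC.1 to SSC.4. MASC lines had at most 0.617 FPKM, with a lowest value of 0.13 and a median of 0.277 FPKM, and did not overlap with SSC lines. The difference was −3.39 (SE 0.31, adjusted p = 3.3e-05). ESC and iPS cell lines ranged from 0.17 to 0.611 FPKM and HSC cultures reached 0.114 FPKM, while the MEF sample had 1.02 FPKM. Its second transcript, NM_001290646, which starts further upstream at 38194801, made up at most 6.64% of the Lhx2 level in any SSC line.

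Neurog3 (NM_009719, chromosome 10, 61595838 to 61597511, plus strand) encodes a basic helix-loop-helix factor of spermatogonia that are on their way to differentiation, and of endocrine progenitors of the pancreas. Its levels in SSC.1 to SSC.4 were 7.52, 0.238, 7.30 and 3.90 FPKM, so SSC.2 lay within the MASC range of 0.0819 to 0.32 FPKM. The MASC median was 0.19 FPKM and the difference −1.93 (SE 0.48, adjusted p = 0.0121), or −3.40 with a pseudocount of 0.1. This call was lost with strain as a term in the fit (adjusted p = 0.0941). ESC lines were at 0.196 and 0.189 FPKM and iPS cell lines at 0.266 and 0.133 FPKM.

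Sohlh1 (NM_001001714, chromosome 2, 25698517 to 25702768, minus strand) and Sohlh2 (NM_028937, chromosome 3, 54985966 to 55013879, plus strand) encode germ-cell basic helix-loop-helix factors of spermatogonial differentiation. They behaved differently. Sohlh1 was 24.8 FPKM in SSC.1, 1.43 FPKM in SSC.2, 2.01 FPKM in SSC.3 and 0.0871 FPKM in SSC.4, a 284-fold range. SSC.1 was high and SSC.4 lay within the MASC range of 0.0168 to 0.361 FPKM, which had a median of 0.106 FPKM. The difference of −1.74 (SE 0.71) did not pass (adjusted p = 0.0964). It was −0.81 (adjusted p = 0.0597) without SSC.1 and −2.34 (adjusted p = 0.0274), a call, without SSC.4, and it was −3.17 (adjusted p = 0.0507) with a pseudocount of 0.1.

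Sohlh2 had 87.1, 116, 128 and 67.2 FPKM in SSC.1 to SSC.4. MASC lines had 5.83 to 7.00 FPKM with a median of 6.24 FPKM. Within each of the groups the lines were close, 1.91-fold apart among SSC lines and 1.20-fold among MASC lines, and the groups did not overlap. The difference was −3.73 (SE 0.17, adjusted p = 6.4e-07). ESC lines had 17.4 and 12.3 FPKM, iPS cell lines 5.93 and 4.99 FPKM, HSC cultures 0.0570 and 0.0718 FPKM and the MEF sample 0.0561 FPKM.

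Taf4b (NM_001100449, chromosome 18, 14941754 to 15058868, plus strand) encodes a gonad-enriched subunit of the general transcription factor TFIID. It was 18.4, 41.5, 20.3 and 26.2 FPKM in SSC.1 to SSC.4, highest in SSC.2. MASC lines were between 6.21 and 8.81 FPKM, with a median of 7.46 FPKM, and were all lower than the SSC lines. The difference was −1.63 (SE 0.20, adjusted p = 2.6e-04), a 3.52-fold ratio of the means. ESC lines had 7.44 and 9.70 FPKM and iPS cell lines 5.88 FPKM each. HSC cultures had 0.649 and 1.54 FPKM and the MEF sample 0.742 FPKM.

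Among the RNA regulators, Nanos2 (NM_194064, chromosome 7, 19572873 to 19574311, plus strand), which keeps male germ cells undifferentiated by recruiting mRNA decay, was 14.8, 6.13, 7.35 and 13 FPKM in SSC.1 to SSC.4. MASC lines had at most 0.0384 FPKM, with a median of 0.0176 FPKM, and 2 of the 6 were listed at 0. It was also listed at 0 in ESC.2, in both iPS cell lines, in HSC.2 and in the MEF sample. Thus no line outside the SSC group reached 0.05 FPKM. The difference between MASC and SSC lines was −3.40 (SE 0.20, adjusted p = 2.7e-06), and −6.40 with a pseudocount of 0.1.

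Nanos3 (NM_194059, chromosome 8, 86697632 to 86700451, minus strand), which protects migrating primordial germ cells, had 72.3, 10.9, 66.2 and 84.2 FPKM in SSC.1 to SSC.4, with SSC.2 far below the other lines. MASC lines had 0.742 to 1.45 FPKM and a median of 1.26 FPKM, all below SSC.2. The difference was −4.46 (SE 0.50, adjusted p = 1.2e-04). ESC lines had 3.51 and 2.26 FPKM, iPS cell lines 1.75 and 1.98 FPKM, HSC cultures 0.173 and 0.291 FPKM and the MEF sample 0.341 FPKM.

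Dazl (NM_010021, chromosome 17, 50418718 to 50432945, minus strand), a translational regulator of germ cells, was the most abundant of the 10 genes in SSC lines. Its main transcript had 202, 405, 275 and 216 FPKM in SSC.1 to SSC.4. MASC lines had 0.995 to 7.38 FPKM with a median of 4.09 FPKM and lay far below. The difference was −5.88 (SE 0.43, adjusted p = 8.7e-06), a 69.8-fold ratio of the means. With both Dazl transcripts summed, it was −5.23 (limma adjusted p = 2.1e-05), slightly smaller in size than that of Zbtb16 (−5.32). ESC lines had 3.17 and 10.1 FPKM, iPS cell lines 3.73 and 2.68 FPKM and HSC cultures 0.42 and 0.000402 FPKM.

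The second Dazl transcript, NM_001277863, spans the same locus and was 54.4, 148, 68.5 and 283 FPKM in SSC.1 to SSC.4. It was lower in MASC lines as well, at 2.69 to 13.6 FPKM with a median of 5.39 FPKM (difference −4.03, SE 0.57, adjusted p = 5.4e-04). Both transcripts together summed to 413 ± 137 FPKM (SD, n = 4) in SSC lines and to 10.7 ± 5.88 FPKM (SD, n = 6) in MASC lines. Of this sum, the second transcript took 31.2 ± 17.3% (SD, n = 4) in SSC lines and 62.5 ± 13.1% (SD, n = 6) in MASC lines. SSC.4, with 56.8%, lay within the MASC range of 47.4 to 81.7%, and the other SSC lines lay at or below 26.7%. Since the transcripts share most of their sequence, Cufflinks split the reads between them by estimation, and the shares are given without a test.

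**Figure D2:**
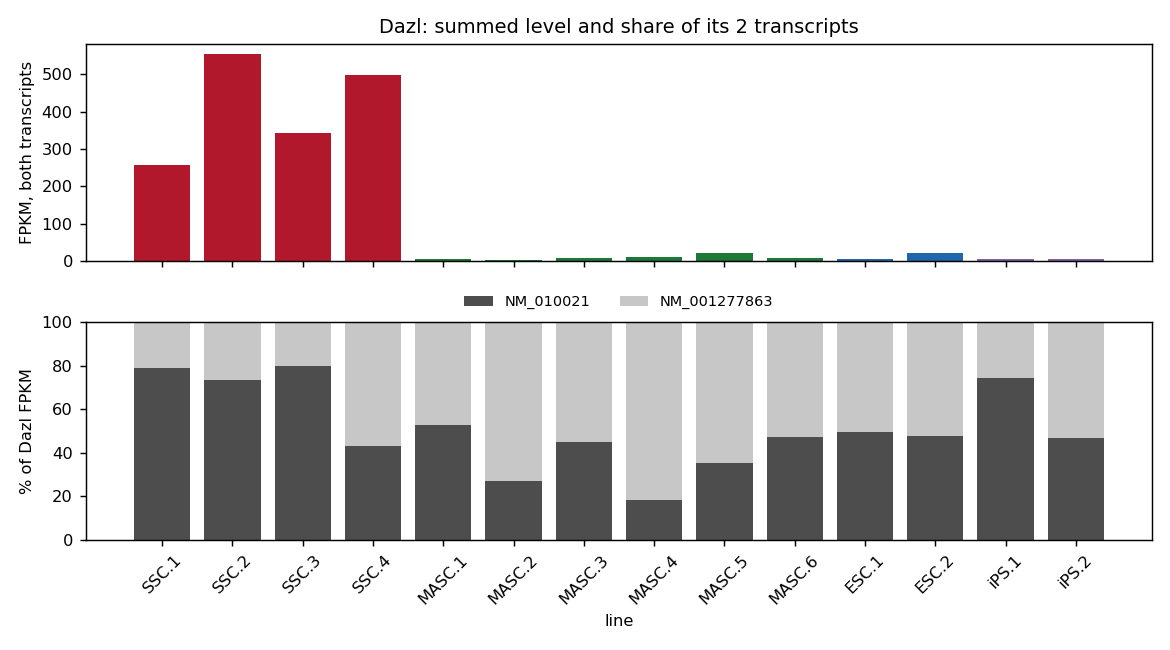
Dazl in SSC, MASC, ESC and iPS cell lines. The upper bars give the FPKM of both transcripts together and the lower bars the percentage of that sum in each transcript, 1 bar per line, showing the second transcript at 56.8% in SSC.4 and between 47.4 and 81.7% in MASC lines.

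The Cufflinks 95% confidence bounds, which cover the assignment of reads within a library and not the spread between lines, were compared as well. For 8 of the 10 genes, the lower bound in all 4 SSC lines was above the upper bound in every MASC, ESC, iPS cell, HSC and MEF sample. For Sohlh1 this held for 3 of the 4 SSC lines against each group. For Neurog3 it held for 3 of the 4 against MASC, ESC and iPS cell lines and for all 4 against HSC and MEF samples. The share of all transcripts with bounds apart in this way was not counted. By FPKM alone, 15.4% of all transcripts had every MASC line below every SSC line. That share takes in neither the bounds nor the other groups, so the counts by bounds have no share to be read against.

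The 4 SSC lines were then compared gene by gene. Ordered by the mean level per length, Dazl had 274.5 FPKM, Dmrt1 241 FPKM, Sohlh2 99.6 FPKM, Nanos3 58.4 FPKM and Zbtb16 52.4 FPKM. Taf4b had 26.6 FPKM, Lhx2 14.7 FPKM, Nanos2 10.3 FPKM, Sohlh1 7.08 FPKM and Neurog3 4.74 FPKM. Between neighbours in this order, the ranges over the SSC lines overlapped except between Dmrt1 and Sohlh2. Dazl and Dmrt1 ranked above 99.4% and 99.3% of all transcripts in SSC lines, and Neurog3 above 66.4%.

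Deviations of single SSC lines did not run in 1 direction over the 10 genes. SSC.2 had the lowest SSC level of Nanos3, Neurog3, Nanos2 and Dmrt1, and the highest of Taf4b, Dazl and Lhx2. SSC.4 had the highest Zbtb16, Dmrt1 and Nanos3, and the lowest Sohlh1 and Sohlh2. Within the Oct4-GFP strain, Neurog3 was 7.52 and 0.238 FPKM and Sohlh1 24.8 and 1.43 FPKM in SSC.1 and SSC.2. SSC.2 also had the lowest fibroblast marker sum among SSC lines (52.7 FPKM) and the lowest germ-line marker sum (430.1 FPKM), and SSC.1 the highest Pou5f1 level. Their part in these deviations was not tested.

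**Figure D3:**
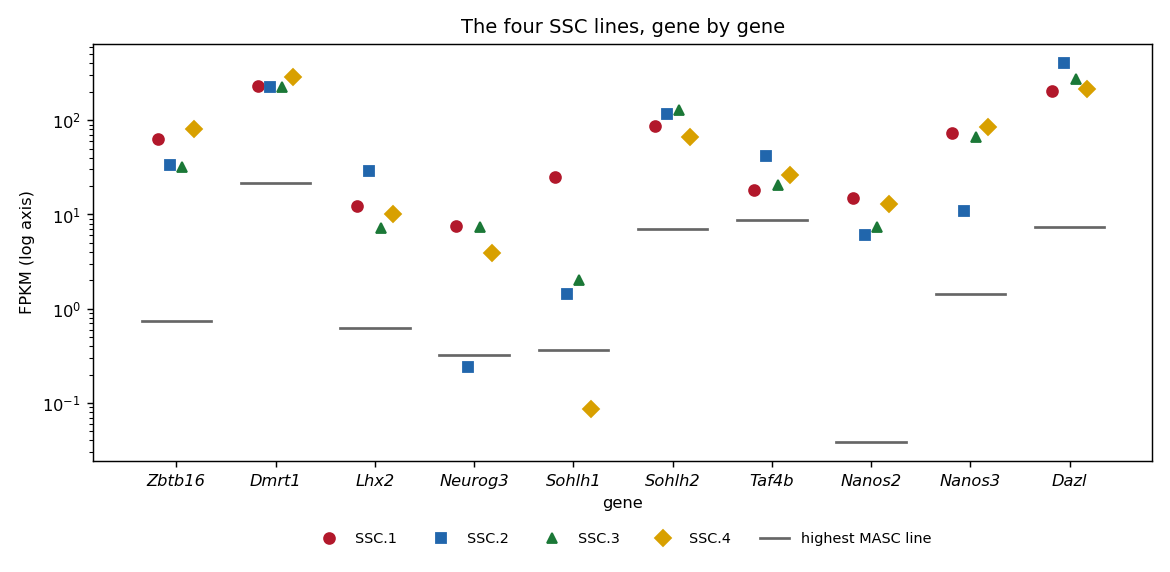
FPKM of the 10 genes in each of the 4 SSC lines, on a log axis, with a grey line at the highest MASC line. SSC.2 lies below the highest MASC line for Neurog3 and SSC.4 does so for Sohlh1, whereas all 4 SSC lines lie above it for the other genes.

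ESC and iPS cell lines, which never passed through the adult germ line, were compared with the same SSC lines, so that the comparisons share these samples. In ESC lines 8 of the 10 genes were lower, beside 8.75% of all transcripts. Sohlh1 (−1.81, SE 0.95, adjusted p = 0.231) and Neurog3 (−1.93, SE 0.64, adjusted p = 0.0594) did not pass, and without SSC.2 Neurog3 was called (adjusted p = 1.0e-04). In iPS cell lines 9 of the 10 genes were lower, beside 9.56% of all transcripts, again without Sohlh1 (−1.70, SE 0.86, adjusted p = 0.196). Dazl had differences of −5.29 (SE 0.57, adjusted p = 2.1e-04) in ESC lines and −5.99 (SE 0.53, adjusted p = 1.2e-05) in iPS cell lines. Zbtb16 had −5.55 (SE 0.37, adjusted p = 1.4e-05) and −5.54 (SE 0.49, adjusted p = 1.3e-05). Nanos3 had −3.63 (SE 0.67, adjusted p = 0.0039) and −4.05 (SE 0.61, adjusted p = 4.9e-04). Taf4b had −1.47 (SE 0.27, adjusted p = 0.00422), the smallest called difference in ESC lines, and −1.93 (SE 0.27, adjusted p = 3.2e-04) in iPS cell lines. Neurog3 was called in iPS cell lines (−1.93, SE 0.58, adjusted p = 0.0307), a call that was lost with strain as a term (adjusted p = 0.123) and with other samples in the fit (adjusted p = 0.266), where Nanos3 was lost too (adjusted p = 0.0595).

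The blood cultures were lower in 9 of the 10 genes than SSC lines, beside 14.2% of all transcripts, with Sohlh1 again not passing (−1.91, SE 0.86, adjusted p = 0.115). Dmrt1 differed by −7.80 (SE 0.47, adjusted p = 1.4e-07) and Sohlh2 by −6.52 (SE 0.21, adjusted p = 4.4e-10). Taf4b differed by −3.68 (SE 0.27, adjusted p = 8.6e-07). Zbtb16 differed by −4.43 (SE 0.49, adjusted p = 2.7e-05), with 3.63 FPKM in HSC.2.

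**Figure D4:**
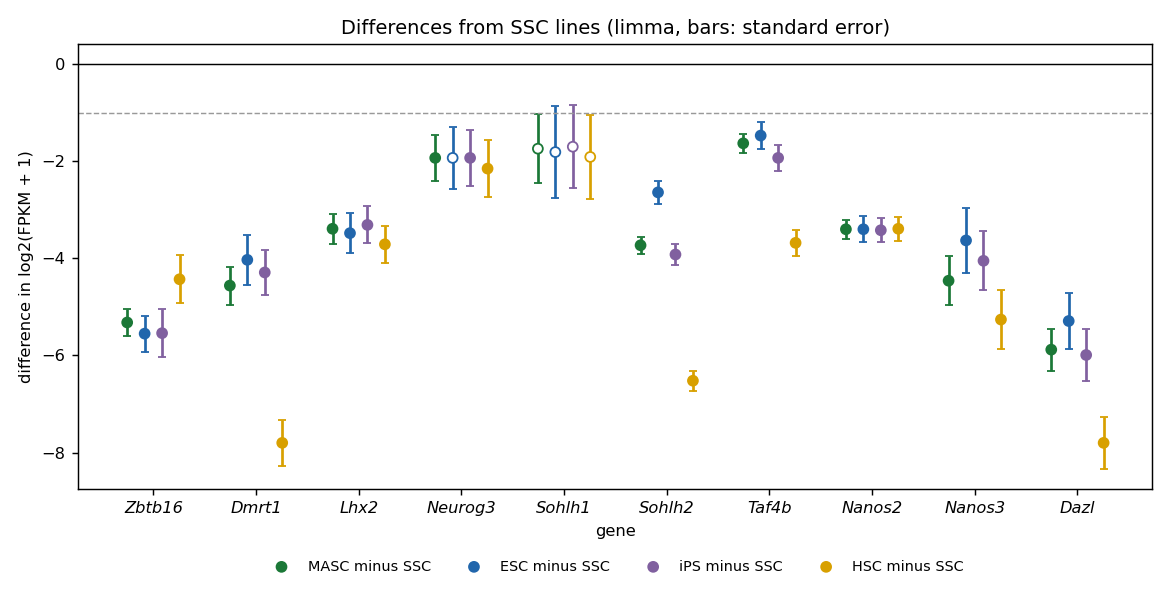
Difference of MASC, ESC and iPS cell lines and HSC cultures from the SSC lines for each gene, in log2(FPKM + 1), with bars of 1 standard error. Filled points passed the call and open points did not, which were Sohlh1 in every comparison and Neurog3 in ESC lines, and the dashed line marks a difference of −1.

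The levels that remained in the pluripotent lines differed between the genes. In MASC lines, Dmrt1, Taf4b, Sohlh2 and Dazl had means of 10.5, 7.57, 6.37 and 3.93 FPKM and ranked above 79.6%, 75.5%, 73.4% and 67.4% of transcripts. Nanos3 had 1.17 FPKM, and Lhx2, Zbtb16, Neurog3, Sohlh1 and Nanos2 had less than 1 FPKM in every MASC line. To set these levels against cells outside the germ line and the pluripotent state, MASC lines were compared with HSC cultures, a comparison added after the values had been seen. Dmrt1 (3.25, SE 0.44, adjusted p = 1.4e-04), Sohlh2 (2.79, SE 0.20, adjusted p = 7.0e-07), Taf4b (2.06, SE 0.26, adjusted p = 7.3e-05) and Dazl (1.91, SE 0.50, adjusted p = 0.0116) were higher in MASC lines. Thus 4 of the 10 genes were higher and none was lower, where 11.2% of all transcripts were called higher. With strain as a term, 2 of the 10 were called, as Taf4b (adjusted p = 0.0538) and Dazl (adjusted p = 0.249) no longer passed, and without HSC.2 Dazl had an adjusted p of 0.113. Over all 32661 transcripts, 2163 were called higher with strain as a term. Both HSC cultures were C57Bl/6J and no MASC line was, so this comparison is also one between strains. Outside the HSC cultures only SSC.3 was C57Bl/6J, so the strain term rests on that line here. All 6 MASC lines lay above both HSC cultures for 8 of the 10 genes, beside 23.9% of all transcripts. Of these 8, Nanos3 (0.81, SE 0.57, adjusted p = 0.342), Sohlh1, Lhx2 and Neurog3 did not pass.

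Fibroblast markers were high in some lines, although SSCs had been plated on gelatin to deplete feeders before collection. The lines in which the 14 markers exceeded 300 FPKM (SSC.1, SSC.3, MASC.1, ESC.1 and HSC.2) were left out, a setting chosen after seeing the data. It leaves 2 SSC lines, 1 ESC line and 1 HSC culture, so that the lone sample is assumed to vary like the other groups. Then 8 of the 10 genes were lower in MASC, iPS cell and HSC samples than in SSC lines, and 7 in ESC lines. Of all transcripts, 9.51%, 9.78%, 15.3% and 7.30% were lower in these comparisons. Neurog3 was then not called in any of them (−1.02, adjusted p = 0.225 for MASC lines), and Nanos3 was not called in ESC lines, with a difference of −3.29 (adjusted p = 0.105) against −3.63 with all lines. In the MEF sample itself, Dmrt1, Sohlh2, Dazl, Zbtb16, Sohlh1, Nanos2 and Neurog3 were all under 0.1 FPKM, and the highest of the 10 genes was Lhx2 with 1.02 FPKM.

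MASC and ESC lines were compared directly in the same fit. None of the 10 genes passed, in a comparison in which 0.0184% of all transcripts did. With the unadjusted p of limma in the call, 51 of the 32661 transcripts were lower in ESC lines and 73 were higher. Of the 10 genes, 1 had an unadjusted p under 0.05. That gene was Sohlh2, which was higher in both ESC lines than in all 6 MASC lines, with a difference of 1.09 (SE 0.22, 95% interval 0.60 to 1.58, adjusted p = 0.524). Nanos3 was also higher in both ESC lines than in all MASC lines (0.83, SE 0.63, 95% interval −0.58 to 2.24, adjusted p = 1). Every ESC line lying above every MASC line was seen in 2.20% of all transcripts.

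To examine whether genetic background altered the difference between MASC and SSC lines, 129mix and Oct4-GFP were compared, the strains in which both cell types were sequenced. None of the 10 genes passed the test of the difference between strains, which 0.242% of all transcripts passed. With the unadjusted p of limma in the call, 783 of the 32661 transcripts were called with a negative and 541 with a positive difference between strains. Of the 10 genes, 1 had an unadjusted p under 0.05. Dmrt1 fell by 3.66 on the log2 scale from 2 SSC to 2 MASC lines in Oct4-GFP and by 5.10 from 1 SSC to 2 MASC lines in 129mix, and the difference between these was −1.44 (SE 0.41, adjusted p = 0.385). For Sohlh1 the differences were −2.67 in Oct4-GFP and −0.06 in 129mix, and their difference of 2.62 had an SE of 2.04 (unadjusted p = 0.278). It was 0.91 without SSC.1 and 4.32 without SSC.2. Each of these fits leaves 1 SSC line in each strain, so line and strain cannot be told apart. The 129mix strain had 1 SSC line, so its spread was taken from the other groups.

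The 10 genes were then set beside 143 others of related roles in 5 lists, whose counts can be read against the 9.60% of all transcripts that were lower and the 6.04% that were higher. Of 32 other genes of undifferentiated spermatogonia, 12 were lower and 7 higher in MASC lines, with a median difference of −0.59. Egr4, an immediate early factor downstream of GDNF, fell from 164 ± 42.1 FPKM (SD, n = 4) to 1.26 ± 1.67 FPKM (SD, n = 6), and Ret, the GDNF co-receptor, fell from 42.9 ± 25.4 to 0.429 ± 0.145 FPKM (differences −6.38 and −4.78, adjusted p = 5.5e-06 and 3.4e-06). Utf1, a chromatin factor shared with pluripotent cells, rose from 12.5 ± 5.51 to 430.4 ± 25.1 FPKM, and Cdh1, the epithelial cadherin, rose from 3.59 ± 2.76 to 118 ± 12.8 FPKM (differences 5.14 and 4.92, adjusted p = 2.5e-06 and 9.5e-06).

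Of 20 other genes of differentiating spermatogonia, 7 were lower and 4 higher, with a median of −0.35. The X-linked homeobox genes Rhox13 and Esx1 and the HMG-box gene Sox3 were lower by 4.66, 4.62 and 4.54 (adjusted p = 2.2e-06, 6.6e-05 and 3.6e-04), and SSC.2 had the lowest Sox3 level of the SSC lines, 20.7 FPKM. Dnmt3b, a DNA methyltransferase, and Upp1, a uridine phosphorylase, were both higher by 4.02 (adjusted p = 2.7e-05 and 0.00266).

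Of 33 other germ cell RNA regulators, 13 were lower and 1 higher, with a median of −0.36. The largest differences were those of the Tudor-domain genes Tdrd1 with −5.08, Tdrd5 with −4.21 and Tdrd7 with −3.69 and of Piwil2, which encodes a piRNA-binding protein, with −3.67 (adjusted p between 8.3e-08 and 1.1e-05). Tdrd9, of the same family, did not pass (−1.02, adjusted p = 0.199). Of 43 transcription partners and paralogs, 13 were lower, 3 higher and 27 did not pass, with a median of −0.26. Here the TFIID paralogs Taf7l and Taf9b were lower by 5.15 and 4.72, from 193 ± 32.3 to 4.69 ± 1.87 FPKM and from 64.6 ± 12.9 to 1.46 ± 0.239 FPKM (SD, n = 4 and 6, adjusted p = 5.0e-06 and 4.2e-08). Dmrt3, a paralog of Dmrt1, was lower by 3.10 (adjusted p = 3.1e-05), and Id2, an inhibitor of basic helix-loop-helix factors, was higher by 3.03 (adjusted p = 9.0e-04).

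Of 15 genes of the repressor complex PRC1.6 and other repressors of germline genes, 1 was lower and 4 were higher, with a median of −0.37. Kdm5c, a histone demethylase, rose from 5.36 ± 0.637 to 15.4 ± 0.865 FPKM, Max from 10.9 ± 1.52 to 26.8 ± 3.97 FPKM and Pcgf6 from 20.0 ± 5.55 to 44.1 ± 10.1 FPKM (SD, n = 4 and 6; differences 1.37, 1.22 and 1.11, adjusted p = 1.7e-05, 7.6e-05 and 0.0047). Tfdp1, an E2F partner, fell by 1.08 (adjusted p = 0.0163). All 5 medians lay closer to the median of all transcripts than that of the 10 regulators.

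**Figure D5:**
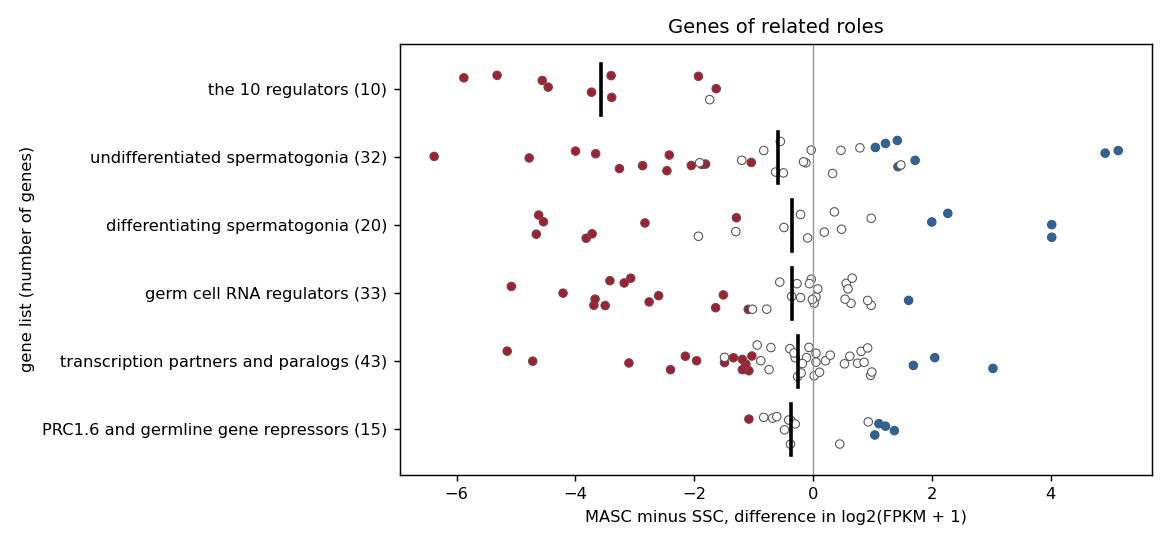
Difference between MASC and SSC lines, in log2(FPKM + 1), for the 10 regulators and for 5 lists of related genes. Each point is a gene, red where called lower, blue where called higher and open where not called, and black bars are medians, which run from −3.56 for the regulators to −0.26 for the transcription partners.

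Over the 17 samples, which fall into groups by cell type, the correlation of log2(FPKM + 1) between 2 regulators ran from 0.461 (Sohlh1 and Taf4b) to 0.975 (Dmrt1 and Sohlh2). Nanos2 and Zbtb16, both under 1 FPKM in every MASC, ESC and iPS cell line, correlated at 0.973, and Sohlh2 and Taf4b, neither below 4.99 FPKM in these lines, at 0.954. Dazl correlated at 0.919 with Nanos2 and at 0.917 with Dmrt1, and Nanos3 at 0.952 and 0.894. The genes with the most similar profile were searched among 17140 transcripts with a mean of at least 1 FPKM. They were Hspa4l (r = 0.983), Cd7 and Taf9b for Zbtb16, and Dtx2 (r = 0.983), Dlgap4 and Sohlh2 for Dmrt1. For Sohlh2 they were the germ cell gene Tex14 (r = 0.985), AU022751 and Dmrt1, and for Dazl Tex11 (r = 0.991), Taf7l and Pramel1. Nanos2 was most similar to Gm44 (r = 0.994), Fut10 and Fendrr, and Nanos3 to Pxt1 (r = 0.98), Tmem63c and Plekha6. Taf4b was closest to Zmym4 (r = 0.98), Zscan18 and Dnaaf2, and Lhx2 to Wnk4 (r = 0.987), Rapgefl1 and Wif1.

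The genes closest to Neurog3 were Adcy10 (r = 0.994), Ccdc152 and Pet2, and those closest to Sohlh1 were A230065H16Rik (r = 0.94), Mir484 and Mir5616. Since these genes were picked for their likeness over samples that include the SSC lines, their levels in single SSC lines are no further evidence. The 2 microRNAs are short and were listed at 0 in SSC.2, SSC.3 and SSC.4.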

How the data were processed

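RNA-seq tables of 17 samples were used, 1 per sample. Per the submitters' processing notes, reads were aligned to mm9 with TopHat2 2.0.11 and quantified with Cufflinks, with PCR duplicates and multi-mapped reads excluded and upper-quartile and GC normalization. The authors deposited an FPKM per RefSeq transcript with its confidence bounds and its coverage, a signal in reads per base. Read counts were not used, and this coverage is the measure of depth here. Of 33262 rows per file, 601 were further loci of a transcript and were left out.

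Values were used as log2(FPKM + 1), a pseudocount of 1, without a filter. limma 3.58.1 in R 4.3.3 was fitted over the 12 SSC, MASC and ESC lines, over all 17 samples for iPS cells and HSCs, and over 7 lines for the strain interaction, with Benjamini-Hochberg adjustment over all 32661 transcripts. The 1 MEF sample was described and not tested. The fit was first tested on simulated data. The regulators, lists and markers were chosen with earlier results of these data known. Named from each list are the 4 called genes with the largest difference between MASC and SSC lines (5 where the last are tied), and for each regulator the 3 most similar symbols by Pearson r. Meioc was not found in the tables. Promoter windows are from RefSeq on GRCm38.p6, while positions of transcripts are those of the files, on mm9, counted from 1. Motifs were searched on both strands. ChIP-seq was not analysed here.

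Alternatives were a pseudocount of 0.1, a filter for at least 1 FPKM in at least 2 samples, quantile normalization, eBayes with trend, a difference of at least 2, raw p, sums over the transcripts of a symbol, other samples in the fit, blocks for replicate number and strain, each line left out, and, added after seeing the data, the lines with high fibroblast markers left out.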

Additional observations from a re-analysis of the deposited data

Results flagged for a closer look

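Among the 20 groups examined for an extreme value, 10 of 4 SSC lines and 10 of 6 MASC lines, 2 had one, where chance gives about 1 in 20. Dmrt1 in SSC.4, 287 FPKM, lay above the 223 to 231 FPKM of the other SSC lines. Those lines were close together, and the whole spread was 1.29-fold. Nanos3 in SSC.2, 10.9 FPKM, lay far below the 66.2 to 84.2 FPKM of the others.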

How the results depend on the processing

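The number of the 10 genes lower than in SSC lines was 9 for MASC lines and ran from 7 to 10 over the other settings and from 9 to 10 with a line left out. It was 8 for ESC lines (7 to 9, and 8 to 9 with a line left out), 9 for iPS cell lines (7 to 9, and 8 to 9) and 9 for HSC cultures (8 to 10, and 8 to 10). The lower ends came from Neurog3 and Taf4b, which did not reach a log2 difference of 2, from Neurog3 and, for ESC and iPS cell lines, Nanos3 losing the call, and the higher ends from Sohlh1 or Neurog3 being called. Over the same settings, the number of all transcripts called lower ran from 697 to 4723 for MASC and 767 to 3976 for ESC lines. It ran from 728 to 4234 for iPS cell lines and 1659 to 6316 for HSC cultures. Neurog3 in iPS cell lines (adjusted p = 0.0307) lost its call without SSC.1 (0.0652), SSC.3 (0.0656), SSC.4 (0.0572), iPS.1 (0.132) or iPS.2 (0.158), and in HSC cultures without HSC.1 (0.0654) or HSC.2 (0.0653). Sohlh1 was called in MASC lines with a filter on low values (adjusted p = 0.0404) and without SSC.4 (0.0274), and in HSC cultures with a pseudocount of 0.1 (0.0273) and without SSC.4 (0.0258). By raw p, 1 gene was called between ESC and MASC lines and 1 between strains, and with a line left out 0 genes were called in the former and 0 to 2 in the latter, 2 without SSC.1 and, without SSC.2, Sohlh1. Of all transcripts, raw p called 51 lower and 73 higher in ESC than in MASC lines, and 783 and 541 between strains. The strain test could not be fitted without SSC.4. Without SSC.1 or SSC.2 it has 1 SSC line in each strain, so line and strain cannot be told apart. Between MASC lines and HSC cultures, 4 genes were called, 2 with strain as a term, and 3 to 5 with a line left out. Of the 143 listed genes, 65 were called, 38 with a difference of at least 2 and 59 to 67 with a line left out. No value given for a gene turned its direction. Among values not given, 14 of 176 for MASC against ESC lines, 6 of 112 between strains and 6 of 135 for MASC lines against HSC cultures did so.

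The replicate number does not pair the lines. Residuals of the 4 SSC and MASC pairs with the same number correlated between −0.225 and 0.185, with a mean of −0.031 against 0.005 for the 20 pairs with different numbers. With the replicate number as a block, 8 of the 10 genes were lower in MASC, 7 in ESC, 8 in iPS cell and 8 in HSC samples, and 3 were higher in MASC lines than in HSC cultures. Of the 32661 transcripts, 2387, 1643, 2436 and 3870 were then lower in the same order. In MASC lines, 2688 were then higher than in HSC cultures.

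The filter on low values moved the median difference of all transcripts, to −0.16 for MASC, −0.19 for ESC, −0.20 for iPS cell and −0.31 for HSC samples against SSC lines. Calls split into 2102 lower and 1967 higher for ESC lines with quantile normalization against 2859 and 1620 without, into 2275 and 2333 against 3122 and 1885 for iPS cell lines, and into 3690 and 3425 against 4623 and 2859 for HSC cultures. With a pseudocount of 0.1, differences of Sohlh1, Nanos2, Lhx2 and Neurog3 from SSC lines, and of Dmrt1, Sohlh2, Nanos3 and Dazl between MASC lines and HSC cultures, grew by over 1.5 times in some or all comparisons, and Nanos3 was then called in the latter (adjusted p = 0.0319). Levels under 1 FPKM rest on few reads per base and do not show absence.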
